A study of Mus musculus with 6 samples.

Results

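The genes described here code for core proteins of the spliceosome and for the RNA-binding proteins that steer splicing. They are the count-table rows whose symbol begins with Hnrnp, Srsf, Snrp, Lsm, Sf3a or Sf3b, leaving out Snrpn, and number 65 of 23282 rows. By family these are 20 Hnrnp, 11 Srsf, 11 Snrp, 14 Lsm and 9 Sf3 rows. Lsmem1 is among the Lsm rows by its letters only, since it codes for a leucine-rich membrane protein. The genes of the Snrnp series, such as Snrnp70, are not matched by these prefixes and are given below with the other spliceosome genes.

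Levels were measured in the hippocampus of C57BL/6 mice at 16 weeks of age, in 3 libraries labelled PHF2 t/g and 3 labelled wild type (WT). PHF2 is a demethylase of histone H3 lysine 9, and the study set the hippocampal mRNA of the 2 genotypes side by side. The sources used here do not give the construct, its promoter, the number of founder lines or any pooling of animals. Replicates are labelled as separate samples but not as separate animals, so the spread behind each p-value is that between libraries and may be technical. Libraries were made with QuantSeq, a 3′ end kit that reads about 1 tag per transcript, so levels do not scale with transcript length. They are given as CPM, counts scaled to the library total with TMM factors and expressed per 1e6.

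The libraries held 6053363 to 8612720 counts in PHF2 t/g, against 5512171 to 8844718 in WT. The 65 genes took 0.647% to 0.681% of counts in PHF2 t/g, against 0.617% to 0.658% in WT. Phf2 itself stood at 35.5, 37.3 and 43.1 CPM in PHF2 t/g libraries, against 38.3, 35.6 and 39.3 CPM in the WT libraries (edgeR adjusted p = 0.929). A transgene without the endogenous 3′ end would not be counted, so these values cannot test the genotype labels. WT library 2 stood apart from the others, being the lowest of the 6 libraries for 25.8% and the highest for 22.1% of all tested genes. PHF2 t/g library 1 stood apart in Ttr, a choroid plexus gene, with 2634 counts, against 8 to 38 in the other 5 libraries.

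Introns are removed by the spliceosome, which is built from small nuclear ribonucleoproteins (snRNPs). U1, U2, U4 and U5 snRNAs are each ringed by the Sm proteins (Snrpb, Snrpd1, Snrpd2, Snrpd3, Snrpe, Snrpf and Snrpg), whereas U6 snRNA carries a ring of Sm-like proteins, LSm2 to LSm8. The SF3A and SF3B complexes join the U2 snRNP and hold it on the branch site. SR proteins (Srsf genes) mostly bind exonic enhancers and promote exon use, and hnRNP proteins (Hnrnp genes) coat nascent transcripts and often favour exon skipping. Neurons use alternative splicing heavily in the mRNAs of channels, receptors and adhesion proteins.

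Of the 65 genes, 63 had enough counts to be tested. In PHF2 t/g hippocampus Snrpd3, Lsm7 and Lsm12 fell and Hnrnpa1 rose, while the other 59 tested genes did not pass the threshold (edgeR adjusted p under 0.05). The 4 genes are 6.35% of the 63. Of all 12831 tested genes 2.27% passed, 0.779% being higher and 1.49% lower. At an unadjusted p under 0.05 there were 3 genes higher and 9 lower, against 6.72% and 7.95% of all tested genes, or 14.7% together. The 3 PHF2 t/g values did not overlap the 3 WT values for 14 of the 63, 3 of them higher and 11 lower. Over all tested genes 20.6% did not overlap, 10.1% higher and 10.4% lower. In whole tissue, fewer cells of a type and less RNA per cell cannot be told apart.

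**Figure D1:**
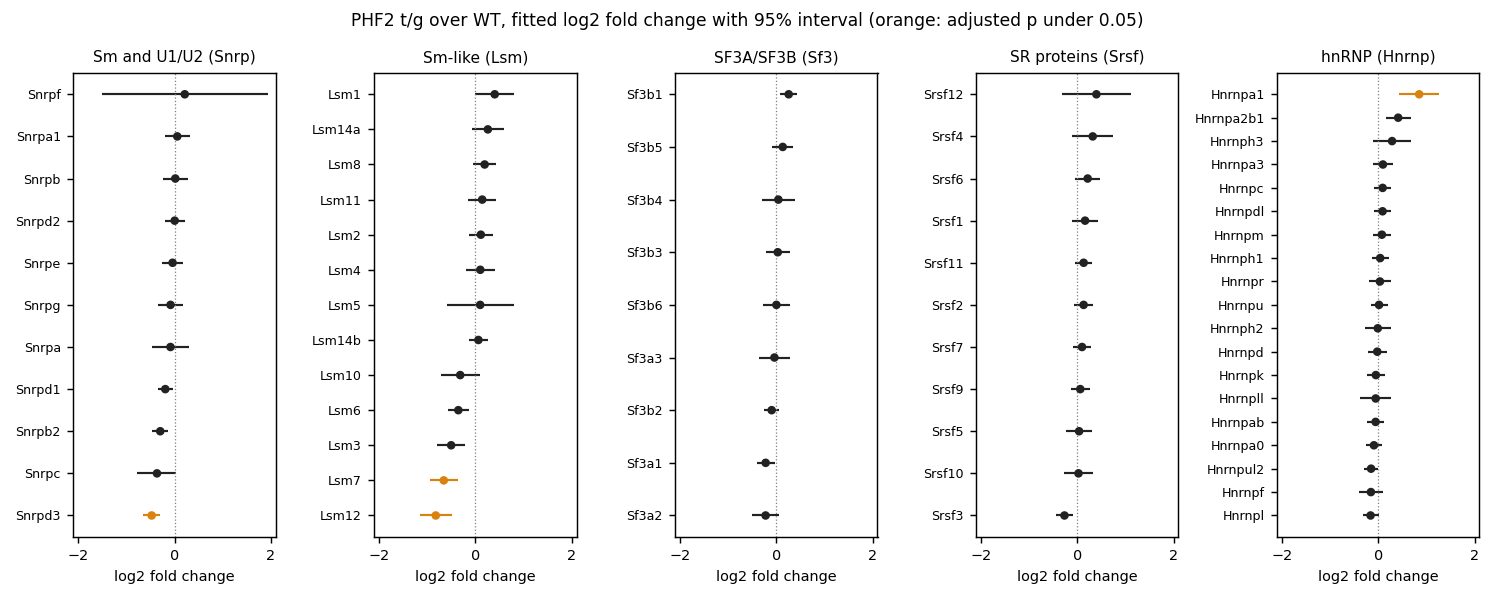
Fitted log2 fold change of PHF2 t/g over WT (x axis) for each of the 63 tested genes (y axis), 1 panel per family. Points are estimates, lines are 95% intervals, and orange marks the 4 genes with an edgeR adjusted p under 0.05. Most points lie close to 0, Snrpf has the widest interval, and Snrpd3, Lsm7 and Lsm12 lie to the left and Hnrnpa1 to the right.

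Most of the 63 genes differed little, in a share close to that of all tested genes. Fitted log2 fold changes ran from −0.82 to 0.85 with a median of 0.03, against 0.02 over all tested genes. Of the 63 genes, 36 lay above 0 and 27 below, or 42.9% below, where 53.9% of all tested genes lay above and 46.1% below. All but Lsm7, Lsm12 and Hnrnpa1 differed by less than 1.5-fold, 60 of 63, as did 12172 of 12831 over all tested genes. For 48 of the 63 the whole 95% interval of the difference lay within 1.5-fold in either direction.

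The RefSeq promoter windows (GRCm38.p6, 250 bases before the start that table gives, on the gene's strand) of the genes that passed the test are shown so that they can be compared, and Lsm12 is named only. Capitals mark matches on either strand to the letters CCAAT of the CCAAT box. They also mark the GC box, spelled GGGCGG, the ETS core, spelled CCGGAAG, and the TATA motif, spelled TATAAA. Snrpd3 lies at chr10:75517792-75518041 (plus strand), Lsm7 at chr10:80855210-80855459 (minus strand) and Hnrnpa1 at chr15:103240147-103240396 (plus strand).
Snrpd3: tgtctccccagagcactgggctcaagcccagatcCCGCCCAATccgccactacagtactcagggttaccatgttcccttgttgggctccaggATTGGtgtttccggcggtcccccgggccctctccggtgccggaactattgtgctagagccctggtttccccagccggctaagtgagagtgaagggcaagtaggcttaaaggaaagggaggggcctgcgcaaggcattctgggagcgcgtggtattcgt
Lsm7: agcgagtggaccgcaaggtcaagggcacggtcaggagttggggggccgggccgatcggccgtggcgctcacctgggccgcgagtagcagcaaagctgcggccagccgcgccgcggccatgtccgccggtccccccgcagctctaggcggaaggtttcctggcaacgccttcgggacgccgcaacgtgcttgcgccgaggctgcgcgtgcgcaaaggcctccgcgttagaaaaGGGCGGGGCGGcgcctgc
Hnrnpa1: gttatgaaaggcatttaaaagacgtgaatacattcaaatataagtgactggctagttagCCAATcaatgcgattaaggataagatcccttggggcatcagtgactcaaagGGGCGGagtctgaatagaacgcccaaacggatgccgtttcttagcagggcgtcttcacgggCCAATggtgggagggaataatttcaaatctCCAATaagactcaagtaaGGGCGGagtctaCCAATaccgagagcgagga
The windows differ in composition, with 60.4% G and C in Snrpd3, 72.4% in Lsm7 and 46.0% in Hnrnpa1. For Hnrnpa1, whose window lies just inside the annotated gene, there are 4 CCAAT and 2 GC box matches, Snrpd3 holds 2 CCAAT and 1 GC box match, 1 of each overlapping, and Lsm7 holds 2 overlapping GC box matches.

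A window was found for 56 of the 65 genes. CCAAT was present in 44.6% of them, against 36.2% of tested genes and 34.5% of all windows. GGGCGG was present in 67.9%, against 59.7% of tested genes and 32.9% of all windows. CCGGAAG was present in 28.6%, against 13.3% of tested genes and 7.06% of all windows. The median G and C content was 60.8%, close to the 60.4% of tested genes, and both stood above the 52% of all windows. TATAAA was present in 8.93%, against 6.14% of tested genes and 13.0% of all windows. These matches describe letters in a window and do not show that a factor binds there.

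Levels spanned a wide range. The mean over 6 libraries ran from 2.60 CPM for Srsf12, an SR protein of restricted expression, to 554 CPM for Hnrnpk, which binds C-rich RNA. The median was 51.9 CPM, against 20.1 CPM over all tested genes. By family the median level was 98.1 CPM for Hnrnp, 84.8 for Srsf, 51.4 for Sf3, 43.4 for Snrp and 25.2 for Lsm. Between replicates the median coefficient of variation was 7.91% in PHF2 t/g and 9.94% in WT. Over all tested genes, which were not matched by level, it was 9.47% and 12.07%. Within the Hnrnp family it was 5.02% in PHF2 t/g and 10.5% in WT, and 15 of the 19 genes varied more in WT, as did 8010 of all 12831 tested genes. WT library 2 was the lowest of the 6 libraries for 15 of these 19 genes. Hnrnpul1 and Lsmem1 were below the low-count filter, with 5 to 7 counts of Hnrnpul1 in PHF2 t/g, against 6 to 12 in WT, and 4 to 7 counts of Lsmem1 in PHF2 t/g, against 3 to 5 in WT.

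**Figure D2:**
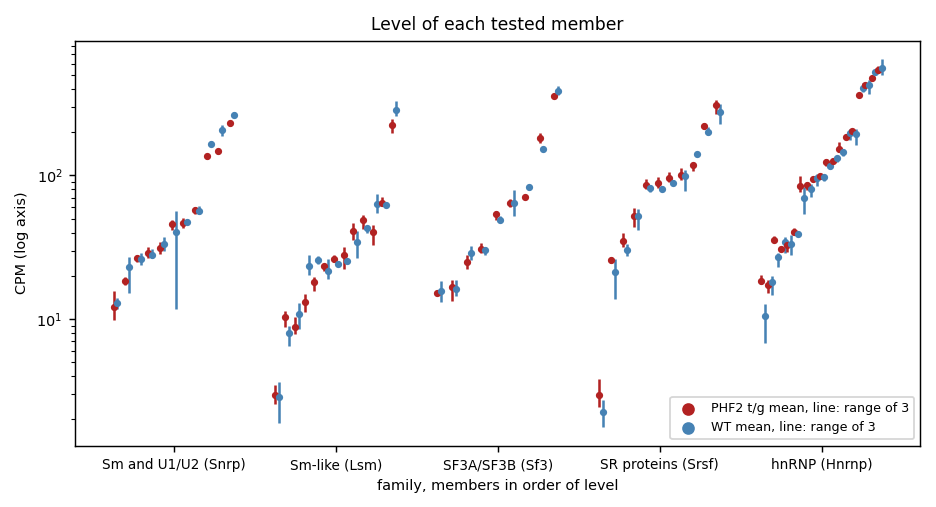
Level of each of the 63 tested genes in CPM (y axis, log scale), grouped by family and ordered by level (x axis). Points are means of 3 libraries and lines run from the lowest to the highest library, PHF2 t/g left of WT. Levels span from under 3 CPM (Srsf12 and Lsm5) to over 500 CPM (Hnrnpk), and Snrpf has the longest line, in WT.

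Among the Sm proteins Snrpd3 fell in PHF2 t/g hippocampus. Snrpd3, which codes for the SmD3 protein of the Sm ring (chr10:75518042-75535440), stood at 141, 153 and 152 CPM in PHF2 t/g libraries, against 189, 226 and 204 CPM in the WT libraries. All PHF2 t/g values were below all WT values. The log2 fold change was −0.47 (SE 0.08, 95% interval −0.65 to −0.30), a 1.39-fold lower level (edgeR adjusted p = 0.00452). Its edgeR adjusted p rose above 0.05 only without PHF2 t/g library 1 (0.0897) among 16 alternative fits. The end of its annotated transcripts shares no run of 50 bases with another gene.

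The other Sm ring genes did not pass the test. Snrpd1, for SmD1, was the highest of the Snrp family at 236, 240 and 221 CPM in PHF2 t/g, against 276, 263 and 257 CPM in WT, without overlap (log2 fold change −0.19, edgeR adjusted p = 0.231). Snrpd2, whose protein pairs with SmD1, averaged 57.1 ± 2.80 CPM in PHF2 t/g, against 56.9 ± 3.92 CPM in WT (SD, n = 3 each), with a log2 fold change of 0.00 (95% interval −0.21 to 0.21). Snrpb, Snrpe and Snrpg had log2 fold changes of 0.02, −0.04 and −0.08. The fold changes of the 2 genes whose proteins pair, Snrpb and Snrpd3, thus lay at opposite ends of the ring's range apart from Snrpf.

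Snrpf, singled out after its values were seen, had 41.6, 48.7 and 48.3 CPM in PHF2 t/g, against 56.7, 11.7 and 53.4 CPM in WT. WT library 2 was far below the other 5, and the 95% interval of the log2 fold change, −1.51 to 1.94, was the widest of the 63. The 3′ end of Snrpf overlaps that of Ccdc38 on the opposite strand, and the Ccdc38 row held 0.937 to 0.957 times the Snrpf count in PHF2 t/g, against 0.866 to 0.949 times in WT. It dropped to 88 counts in WT library 2 as well, against 258 to 359 in the others. The sources used here do not say whether counting used strand, so reads of the 2 genes cannot be told apart.

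Of the proteins specific to the U1 and U2 snRNPs, none passed the test. Snrpb2, whose protein binds a stem loop of U2 snRNA, came closest, at 130, 141 and 137 CPM in PHF2 t/g, against 162, 175 and 162 CPM in WT. All PHF2 t/g values were below all WT values, with a log2 fold change of −0.30 (SE 0.08, edgeR adjusted p = 0.0582). It passed the test with DESeq2 (adjusted p = 0.0415). Its 3′ end shares a run of 50 bases with 1 pseudogene. Snrpc, for the U1 snRNP C protein that helps U1 meet the 5′ splice site, had 17.7, 19.7 and 17.4 CPM in PHF2 t/g, against 15.2, 27.1 and 27.2 CPM in WT, with overlap (log2 fold change −0.36, edgeR adjusted p = 0.393), and passed without WT library 1 (−0.58, edgeR adjusted p = 0.0356). Snrpa, for the U1 snRNP A protein, was the lowest of the family at 15.7, 9.80 and 10.6 CPM in PHF2 t/g, against 14.1, 12.9 and 11.8 CPM in WT, and its 3′ end is shared with 6 other genes. Snrpa1, for the U2 snRNP partner of the Snrpb2 protein, had a log2 fold change of 0.06 (95% interval −0.20 to 0.31).

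For the Snrp family as a whole, 7 of 11 genes lay below 0 (63.6%, against 46.1% of all tested genes). Of these, 1 passed the test and 3 were lower without overlap (1.49% and 10.4% of all tested genes). The summed level was 771 to 803 CPM in PHF2 t/g, against 897 to 913 CPM in WT, and Snrpd1, Snrpd3 and Snrpb2 carried most of it. With scaling by total count alone it was 792 to 825 CPM in PHF2 t/g, against 855 to 891 CPM in WT. The median log2 fold change was −0.08, which turned to 0.02 when libraries were scaled by total count alone, a scaling that moved the median of all tested genes to 0.12 and left 4 of the 11 below 0. Set against the all-gene median, it stood at −0.10 under both scalings. The left-out row Snrpn, an imprinted neuronal paralog of Snrpb, averaged 239 ± 8.61 CPM in PHF2 t/g, against 268 ± 25.2 CPM in WT (log2 fold change −0.16, edgeR adjusted p = 0.373).

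Lsm7 and Lsm12 fell in PHF2 t/g hippocampus. Lsm7, a subunit of both the nuclear LSm2 to LSm8 ring on U6 snRNA and the cytoplasmic LSm1 to LSm7 ring of mRNA decay (chr10:80852825-80855209), stood at 45.5, 42.5 and 32.8 CPM in PHF2 t/g libraries, against 55.0, 74.5 and 61.1 CPM in the WT libraries. The groups did not overlap, and WT library 2 was the highest. With a log2 fold change of −0.66 (SE 0.14), its level was 1.58-fold lower (edgeR adjusted p = 0.0196). Its adjusted p exceeded 0.05 when any 1 PHF2 t/g library was left out and when libraries were scaled by total count alone, reaching at most 0.0929. Its 3′ end shares a run of 50 bases with 2 processed pseudogenes, so its count is uncertain.

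Lsm12 (chr11:102162497-102186268), an Sm-like protein outside both rings that in Drosophila is known as a partner of ataxin-2, stood at 13.4, 14.9 and 11.3 CPM in PHF2 t/g libraries, against 20.4, 27.8 and 21.6 CPM in the WT libraries. All PHF2 t/g values lay below all WT values. It had the largest fall of the 63 tested genes, with a log2 fold change of −0.82 (SE 0.16), a 1.77-fold lower level (edgeR adjusted p = 0.00892). The adjusted p exceeded 0.05 without PHF2 t/g library 1, without PHF2 t/g library 3 and without both WT library 2 and PHF2 t/g library 1. It reached at most 0.101. DESeq2 gave Lsm12 no adjusted p and so did not call it. No shared 3′ end was found for Lsm12.

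**Figure D3:**
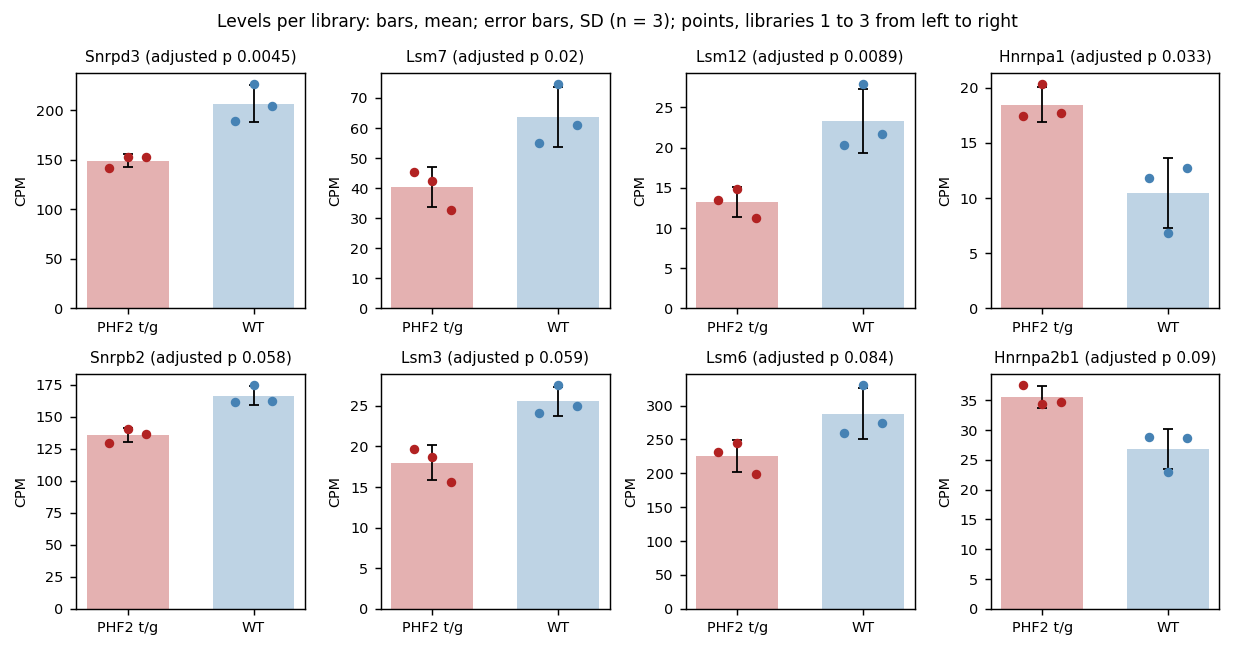
Level in CPM (y axis, from 0) in each PHF2 t/g and WT library (x axis) for the 4 genes that passed the test (top row) and 4 that came close (bottom row). Bars are means, error bars SD (n = 3), and points are the libraries. In each panel the PHF2 t/g points do not overlap the WT points; only Hnrnpa1 and Hnrnpa2b1 are higher in PHF2 t/g.

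A pair of other subunits of the U6 ring had groups that did not overlap without passing the test. Lsm3 had 19.7, 18.7 and 15.6 CPM in PHF2 t/g, against 24.2, 27.6 and 25.0 CPM in WT (log2 fold change −0.50, edgeR adjusted p = 0.0591). Its 3′ end overlaps that of 1 other gene on the same strand. Lsm6, the highest of the family, had 232, 246 and 199 CPM in PHF2 t/g, against 259, 331 and 274 CPM in WT (log2 fold change −0.36, edgeR adjusted p = 0.0837). It passed with DESeq2 (adjusted p = 0.0391) and without WT library 1 (edgeR adjusted p = 0.0363). In both genes PHF2 t/g library 3 was the lowest and WT library 2 the highest of the 6 libraries, as in Lsm7 and Lsm12.

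The remaining ring subunits lay on the other side of 0. Lsm2, Lsm4, Lsm5 and Lsm8 had log2 fold changes of 0.11, 0.10, 0.10 and 0.19. Lsm8, which is found in the nuclear ring alone, averaged 48.6 ± 5.66 CPM in PHF2 t/g, against 42.7 ± 2.80 CPM in WT, with overlap. Lsm1, which takes its place in the cytoplasmic ring, averaged 10.3 ± 1.33 CPM in PHF2 t/g, against 7.96 ± 1.32 CPM in WT (log2 fold change 0.40, 95% interval −0.01 to 0.81, edgeR adjusted p = 0.353). Under TMM scaling the 7 genes of the LSm2 to LSm8 ring thus split into 3 lower without overlap, 1 of them past the test, and 4 above 0. Of all tested genes 10.4% were lower without overlap and 1.49% passed as lower. With scaling by total count alone the Lsm6 groups overlapped. The 4 ring genes above 0 had overlap. The ring's median was 0.10, but −0.17 without WT library 2 and −0.04 without PHF2 t/g library 1, each with 4 below 0. Leaving out any other single library kept 3 below 0 and a median above 0.

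Lsm10 and Lsm11, which replace SmD1 and SmD2 in the U7 snRNP of histone mRNA processing, had log2 fold changes of −0.32 and 0.14, both with overlap. Lsm14a and Lsm14b, proteins of cytoplasmic RNA granules, had values of 0.26 and 0.06, and the Lsm14b level was 64.8 ± 5.12 CPM in PHF2 t/g, against 62.2 ± 0.260 CPM in WT. Lsm5, the lowest of the family, had 3.44, 2.56 and 2.90 CPM in PHF2 t/g, against 3.05, 1.88 and 3.63 CPM in WT. At that level a difference of under 1.5-fold was not detectable, the 95% interval running from −0.59 to 0.79.

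For the Lsm family, 5 of 13 tested genes lay below 0 (38.5%, against 46.1% of all tested genes). Of these, 2 passed the test and 4 were lower without overlap (1.49% and 10.4% of all tested genes). The median log2 fold change was 0.10 while the summed level of the 14 rows was lower, at 491 to 588 CPM in PHF2 t/g, against 597 to 687 CPM in WT. The sum and the median thus differ in sign, and with scaling by total count alone the sums overlapped, at 504 to 605 CPM in PHF2 t/g, against 569 to 661 CPM in WT. The median was −0.01 without PHF2 t/g library 1, and Lsm6 alone supplied 199 to 246 CPM of the sum in PHF2 t/g, against 259 to 331 CPM in WT. WT library 2 was the highest of the 6 for 6 of the 13 genes, or 46.2%, against 22.1% of all tested genes.

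No gene of SF3A or SF3B passed the test. Sf3b1, the SF3B scaffold that clasps the branch site duplex, had 198, 181 and 169 CPM in PHF2 t/g, against 156, 148 and 156 CPM in WT. All PHF2 t/g values lay above all WT values (log2 fold change 0.26, SE 0.08, edgeR adjusted p = 0.117). With scaling by total count alone its log2 fold change was 0.36 and passed the test (edgeR adjusted p = 0.0312).

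Under TMM scaling all 3 SF3A genes lay below 0, of which Sf3a3 lay at 0.06 with scaling by total count alone. Sf3a1 had 70.7, 71.3 and 70.6 CPM in PHF2 t/g, against 84.5, 79.2 and 84.7 CPM in WT, without overlap (log2 fold change −0.22, edgeR adjusted p = 0.235). Sf3a2 and Sf3a3 had values of −0.22 and −0.04, both with overlap, and Sf3a3 was the lowest of the Sf3 family at 15.3 ± 0.411 CPM in PHF2 t/g, against 15.7 ± 2.67 CPM in WT. Sf3b2, the highest of the family, averaged 361 ± 5.32 CPM in PHF2 t/g, against 386 ± 28.7 CPM in WT (log2 fold change −0.10, 95% interval −0.26 to 0.06). Sf3b3, Sf3b4, Sf3b5 and Sf3b6 had log2 fold changes of 0.03, 0.04, 0.13 and 0.00. For all 9 genes the 95% interval lay within 1.5-fold, and the summed level was 815 to 823 CPM in PHF2 t/g, against 811 to 844 CPM in WT. With scaling by total count alone the sums did not overlap, at 837 to 860 CPM in PHF2 t/g, against 786 to 812 CPM in WT.

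No SR protein gene passed the test. Srsf3, the smallest SR protein, which also takes part in mRNA export, had 123, 123 and 107 CPM in PHF2 t/g, against 137, 144 and 144 CPM in WT. It was the only 1 of the 11 below 0 and the only 1 without overlap (log2 fold change −0.27, SE 0.08, edgeR adjusted p = 0.107). The other 10 lay above 0, with a family median of 0.13. Over all tested genes 53.9% lay above 0, 20.6% did not overlap and the median was 0.02.

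Srsf1, a founding SR protein and the highest of the family, had 321, 337 and 269 CPM in PHF2 t/g, against 285, 229 and 315 CPM in WT (log2 fold change 0.16, edgeR adjusted p = 0.594). Srsf11, which was next in level, averaged 221 ± 10.9 CPM in PHF2 t/g, against 202 ± 15.3 CPM in WT (log2 fold change 0.13). Srsf6 had a log2 fold change of 0.21 (edgeR adjusted p = 0.452), and Srsf2, Srsf5, Srsf7, Srsf9 and Srsf10 ran from 0.02 to 0.13. Srsf12, the lowest, had 2.44, 3.83 and 2.57 CPM in PHF2 t/g, against 2.28, 1.76 and 2.72 CPM in WT.

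Srsf4 had 27.1, 26.0 and 24.6 CPM in PHF2 t/g, against 26.1, 13.9 and 23.5 CPM in WT (log2 fold change 0.32, edgeR adjusted p = 0.485). WT library 2 was again far below the other 5. Its 3′ end overlaps Gm12992 on the opposite strand, whose row held 1.09 to 1.10 times the Srsf4 count in PHF2 t/g, against 1.06 to 1.12 times in WT, so this row is uncertain too. WT library 2 was the lowest of the 6 for 6 of the 11 Srsf genes, or 54.5%, against 25.8% of all tested genes. Without it 8 of the 11 lay above 0 and the median was 0.10. The family summed to 1094 to 1161 CPM in PHF2 t/g, against 1013 to 1124 CPM in WT, with overlap that was gone with scaling by total count alone (1124 to 1198 CPM in PHF2 t/g, against 974 to 1097 CPM in WT).

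In the hnRNP family Hnrnpa1 rose in PHF2 t/g hippocampus. Hnrnpa1, a shuttling hnRNP protein known for silencing exons (chr15:103239943-103246698), stood at 17.4, 20.3 and 17.7 CPM in PHF2 t/g libraries, against 11.8, 6.81 and 12.7 CPM in the WT libraries. All PHF2 t/g values were above all WT values, and WT library 2 was well below the other 5. The log2 fold change was 0.85 (SE 0.20, 95% interval 0.43 to 1.27), a 1.80-fold higher level (edgeR adjusted p = 0.0329). Without WT library 2 it was 0.59 (edgeR adjusted p = 0.0468).

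The Hnrnpa1 call held in 9 of the 15 alternative fits that gave it an adjusted p, and DESeq2 gave none. Its adjusted p was 0.0603 with limma-voom and 0.0705 without the robust fit. It was 0.185, 0.176 and 0.106 without PHF2 t/g library 1, 2 and 3. It was the lowest in level of the 19 tested Hnrnp genes, and its 3′ end shares no run of 50 bases with another gene.

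Hnrnpa2b1, a paralog that also carries mRNAs to dendrites and myelin processes, had 37.6, 34.4 and 34.8 CPM in PHF2 t/g, against 28.9, 23.0 and 28.7 CPM in WT. The groups did not overlap (log2 fold change 0.41, SE 0.12, edgeR adjusted p = 0.0904), and scaling by total count alone brought it past the test (edgeR adjusted p = 0.0375). Under TMM scaling Hnrnpul2 and Hnrnpl were lower without overlap and did not pass. With scaling by total count alone the groups overlapped for both. In the family 4 of 19 genes did not overlap under TMM, against 20.6% of all tested genes. Hnrnpul2, a relative of the nuclear scaffold protein hnRNP U, had 480, 485 and 459 CPM in PHF2 t/g, against 536, 532 and 512 CPM in WT (log2 fold change −0.15). Hnrnpl, which binds CA repeats, averaged 362 ± 3.49 CPM in PHF2 t/g, against 405 ± 34.3 CPM in WT (log2 fold change −0.16). These are differences of 1.11-fold and 1.12-fold.

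The other 15 tested Hnrnp genes had overlapping groups and log2 fold changes from −0.15 (Hnrnpf) to 0.29 (Hnrnph3). Hnrnph3 averaged 84.3 ± 13.1 CPM in PHF2 t/g, against 69.6 ± 15.1 CPM in WT (edgeR adjusted p = 0.50). The genes Hnrnpa0, Hnrnpa3, Hnrnpab, Hnrnpc, Hnrnpd, Hnrnpdl, Hnrnph1, Hnrnph2, Hnrnpll, Hnrnpm and Hnrnpr lay between −0.09 and 0.10. The highest in level were Hnrnpk and, among the overlapping genes, Hnrnpu. Hnrnpk had 531, 519 and 582 CPM in PHF2 t/g, against 647, 504 and 542 CPM in WT (log2 fold change −0.05, 95% interval −0.24 to 0.14). Hnrnpu averaged 429 ± 6.39 CPM in PHF2 t/g, against 425 ± 46.8 CPM in WT (log2 fold change 0.02, 95% interval −0.16 to 0.19). The Hnrnpf and Hnrnpa3 rows are uncertain, since their 3′ ends share runs of 50 bases with 9 and 34 other genes. In all, 18 of the 65 genes share such a run, among them Hnrnpk, Snrpe and Lsm5 (2 other genes each) and Snrpd1 (1). The same limit applies to their counts.

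Most Hnrnp genes were at their lowest in the same library. WT library 2 was the lowest of the 6 for 15 of the 19 genes, or 78.9%, against 25.8% of all tested genes, and the highest for none. The summed level was 3109 to 3191 CPM in PHF2 t/g, and in WT it was 2954 CPM in library 2 and 3274 to 3406 CPM in the other 2. With scaling by total count alone it was 3196 to 3337 CPM in PHF2 t/g, against 2842 to 3246 CPM in WT, still with overlap. The median log2 fold change of the family was 0.02 with all libraries and −0.05 without WT library 2, where 12 of 19 genes lay below 0. Over all 63 genes the median was −0.02 without that library, with 34 below 0, and the same number, 4, passed the test.

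**Figure D4:**
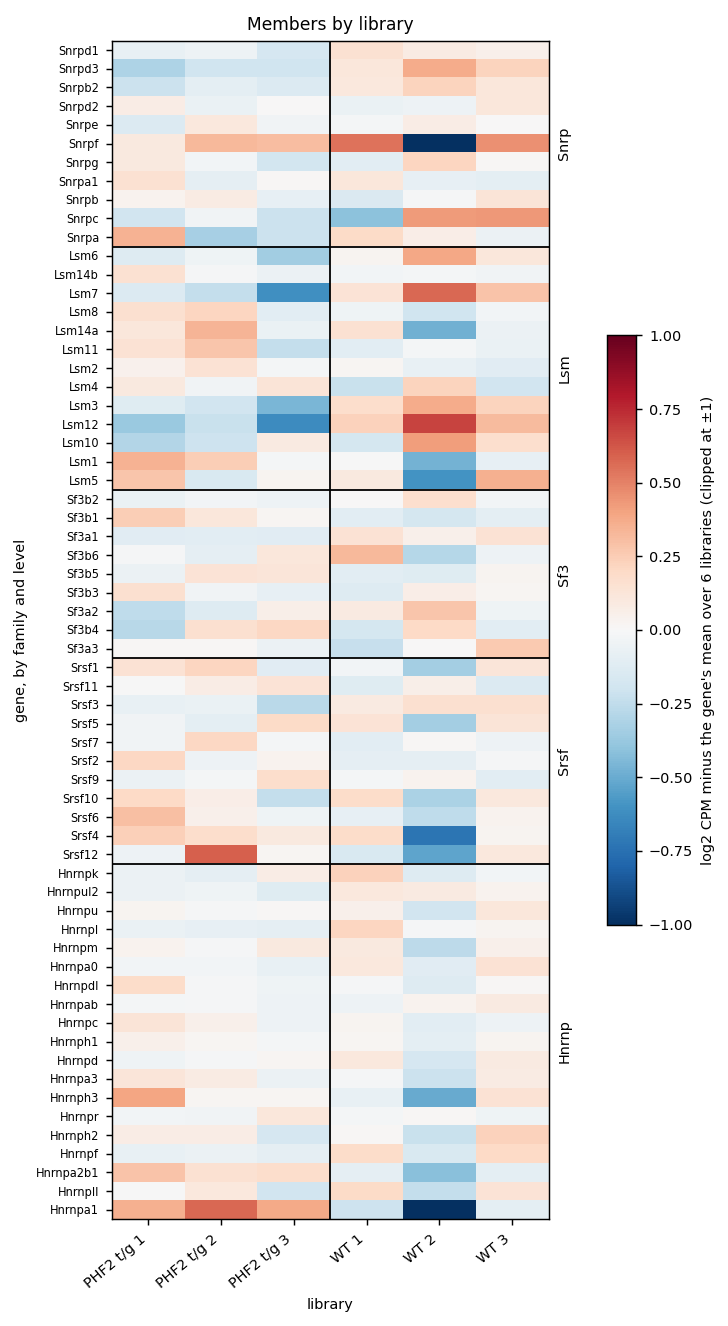
Each of the 63 tested genes (rows, by family and level) in each library (columns, PHF2 t/g left of WT) as log2 CPM minus the gene's mean over the 6 libraries, clipped at 1 in either direction. Red is above and blue below the gene's mean. In WT library 2 most Hnrnp rows are blue, and Lsm7, Lsm12, Lsm3 and Lsm6 are red.

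Other genes of the splicing machinery were followed in 8 lists holding 157 genes, of which 154 were tested. Clk4 and Tia1 rose in PHF2 t/g hippocampus. Across the lists 3 genes passed, 2 higher and 1 lower, or 1.95% of the 154, against 2.27% of all tested genes. The median log2 fold change of the 154 was 0.01. Clk4, a kinase that phosphorylates SR proteins, averaged 25.7 ± 1.78 CPM in PHF2 t/g, against 18.1 ± 1.65 CPM in WT (log2 fold change 0.52, edgeR adjusted p = 0.0491). Tia1, which binds U-rich RNA beside 5′ splice sites, averaged 52.8 ± 0.296 CPM in PHF2 t/g, against 38.4 ± 4.84 CPM in WT (log2 fold change 0.47, edgeR adjusted p = 0.0341). The Clk4 call was lost when any 1 of the 6 libraries was left out, and the Tia1 call without any 1 PHF2 t/g library or WT library 2. Neither call held with limma-voom, with a fit that was not robust or without both WT library 2 and PHF2 t/g library 1. Both genes stayed above 0 in every alternative.

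In the 7 lists without the lower call, 1 of 22 SR-related proteins and kinases passed (Clk4, higher) and 1 of 29 tested tissue-specific regulators (Tia1, higher). None passed of 24 snRNP-specific proteins, 15 factors of 3′ splice site recognition and U2 recruitment, 23 of the Prp19 complex and catalytic steps, 15 of snRNP assembly and 15 of the exon junction complex and nonsense-mediated decay. The genes with the smallest p in those 5 lists were Prpf38a (log2 fold change 0.41, edgeR adjusted p = 0.279), Phf5a (−0.29, 0.0904), Snw1 (−0.29, 0.0829), Gemin7 (−0.35, 0.0849) and Smg1 (0.39, 0.143). Phf5a is a small subunit of SF3B, and it averaged 141 ± 5.99 CPM in PHF2 t/g, against 172 ± 15.8 CPM in WT. Gemin7 belongs to the SMN complex, which loads the Sm ring onto snRNA.

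Markers of cell types and of neighbouring regions differed between the groups beside these results. No listed marker was at 0 in all 6 libraries. The 10 hypothalamic markers summed to 57.4 to 58.4 CPM in PHF2 t/g, against 10.1 to 11.4 CPM in WT, and 3 of the 5 tested were higher (Avp, Oxt and Trh). The striatal list had 3 of 9 tested markers higher and 1 lower, at 1321 to 1462 CPM in PHF2 t/g, against 1269 to 1387 CPM in WT. Leptomeningeal markers had 1 of 8 higher (390 to 465 CPM in PHF2 t/g, 239 to 330 CPM in WT), and endothelial and mural markers 2 of 10 (159 to 172 CPM in PHF2 t/g, 125 to 147 CPM in WT). Their part in the results on splicing genes was not tested.

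Markers of the labelled tissue were present, with Slc17a7, the vesicular glutamate transporter of hippocampal excitatory neurons, at 1202 ± 63.3 CPM in PHF2 t/g, against 1312 ± 88.8 CPM in WT. The 12 excitatory neuron markers summed to 8373 to 9343 CPM in PHF2 t/g, against 9862 to 10910 CPM in WT, and 1 of the 11 tested, Wfs1, was higher. With scaling by total count alone the PHF2 t/g and WT sums of these markers overlapped. Of 10 oligodendrocyte markers 2 were lower, at a sum of 2466 to 2502 CPM in PHF2 t/g, against 2252 to 2524 CPM in WT. None of 10 astrocyte, 10 microglia, 4 choroid plexus and 8 thalamic markers passed the test. The choroid plexus sum was 159 to 569 CPM in PHF2 t/g, highest in library 1, and 142 to 158 CPM in WT.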

How the data were processed

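Hippocampal RNA from 3 PHF2 t/g and 3 WT samples was extracted with Trizol and made into QuantSeq 3′ end libraries, per the labels' protocols. The authors deposited raw counts per gene symbol, 1 table per library with 23282 rows. Bowtie2, edgeR and the build mm10 are named in the submitters' processing notes; the sources used here do not give versions, counting program, annotation or use of strand. Groups and replicate numbers came from sample titles. Every pair of libraries differed beyond sampling noise (closest pair, chi-square of 2.95 per gene). Counting intervals would cover counting error only.

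Genes were kept by filterByExpr, scaled by TMM and tested with edgeR 4.0.16 in R 4.3.3 across all genes, using genotype alone in a robust glmQLFit with glmQLFTest. P-values were adjusted over 12831 genes by Benjamini-Hochberg, with calls at 0.05. The procedure was tested on simulated data. The members and lists were chosen with earlier results of these data known. Named genes are members past the threshold; per family the 4 with the smallest p, the 2 highest and the 1 lowest in mean CPM; and per pathway list up to 4 past the threshold, otherwise the 1 with the smallest p. Other genes named were chosen after their values were seen. The result for 1 pathway gene past the threshold is not reported here.

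Alternatives were DESeq2 size factors, library size alone, DESeq2 1.42.0, limma-voom (limma 3.58.1), no filter, a CPM minimum of 1 in 3 libraries, a non-robust fit, a replicate block and each library left out; leaving out both WT 2 and PHF2 t/g 1, or the rows Rn45s, Lrrc17 and Akap5, was chosen after seeing the data. Coordinates and promoters are from RefSeq GRCm38.p6, in which all 65 symbols matched. Shared 3′ ends are runs of 50 bases in the last 200 bases of GENCODE M21 transcripts.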

Additional observations from a re-analysis of the deposited data

How the results depend on the processing

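The number of splicing genes past the test, 4 in edgeR, stayed between 3 and 5 under both other scalings, DESeq2 and limma-voom. The same range held with a CPM minimum, a fit that was not robust and a fit without Rn45s, Lrrc17 and Akap5. The genes themselves changed, as DESeq2 called Snrpd3, Lsm7, Snrpb2 and Lsm6 but not Lsm12 or Hnrnpa1. The number of splicing genes was 8 without a low-count filter and 2 without both WT 2 and PHF2 t/g 1. With 1 library left out it was 0 to 6 (0 without PHF2 t/g 1, 1 without PHF2 t/g 3, 2 without PHF2 t/g 2). Their median log2 fold change of 0.03 was 0.13 with library size alone, −0.021 to 0.050 with 1 library left out and −0.042 without both libraries. Pathway genes past the test numbered 3. They were 6 with library size alone, 1 with limma-voom, 10 without the filter, 1 with a fit that was not robust, 0 to 3 with 1 library left out and 1 without both libraries. Over all genes, 291 passed. The number was 162 with limma-voom, 606 without the filter, 149 with a fit that was not robust, 49 to 392 with 1 library left out and 140 without both libraries. Calls split into 100 higher and 191 lower with TMM, 207 and 70 with library size alone, and 51 and 217 with DESeq2. The cause of these shifts was not tested. No named gene changed sign while past the threshold.

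The fit with the replicate number as a block gave 5 splicing genes (Lsm6 added, edgeR adjusted p = 0.0266), 2 pathway genes (Clk4 lost, edgeR adjusted p = 0.0527), a median of 0.03 and 299 genes in all. Deviations of same-numbered libraries correlated at −0.004, 0.123 and 0.085, against −0.126 to 0.067 for libraries with different numbers. With 3 libraries per group these values cannot tell whether same-numbered samples were paired or prepared together. Hnrnpul1 (5 to 12 counts per library) and Lsmem1 (3 to 7) were removed by the low-count filter, and neither was among the 8 genes past the test without it.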
